A study of Mus musculus with 15 samples.

Results

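Phospholipase C beta and gamma enzymes were followed through 6 genes, Plcb1, Plcb2, Plcb3, Plcb4, Plcg1 and Plcg2, in dendritic cells of the mouse thymus. They are 6 of the 22165 genes in the deposited count table, matched by Ensembl identifier to their mouse symbols. All 6 passed the filter on low counts, which left 11746 genes for testing. The genes were listed with their KO and WT levels already known. The members were thus chosen by the differences of their counts between KO and WT libraries, and these are given below as a description, with no test.

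The study sorted 3 dendritic cell subsets and measured their mRNA by sequencing of 3′ tags, in 15 libraries. The KO groups came from Itgax-cre Stk11 fl/fl mice, in which Cre is driven by the promoter of Itgax, the gene for CD11c, and removes the kinase LKB1 encoded by Stk11. The other groups came from WT mice, and the labels do not say whether these carried Cre, so Cre and the loss of Stk11 cannot be told apart. Every mouse, KO or WT, was C57BL/6, male or female, 8 to 12 weeks old, and had received B16 melanoma cells secreting Flt3L under the skin, with harvest 9 to 12 days later. Flt3L is a growth factor for dendritic cells, so all groups describe an expanded population. Type 1 conventional dendritic cells (cDC1, 2 KO and 2 WT libraries) were sorted on CD8a, CD11c and MHC class II. Type 2 conventional dendritic cells (cDC2, 3 KO and 2 WT) were sorted on CD11b, CD11c and MHC class II. Plasmacytoid dendritic cells (pDC, 3 KO and 3 WT) were sorted on Siglec-H and intermediate CD11c. Nothing in the labels says that replicates were separate mice, so p-values measure the spread between these libraries, which may be technical.

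Phospholipase C enzymes cut the membrane lipid PIP2 into IP3, which opens calcium channels of the endoplasmic reticulum, and diacylglycerol, which recruits protein kinase C and RasGRP proteins. The beta enzymes are switched on by Gq-class alpha subunits or by beta-gamma subunits of G proteins, downstream of chemokine and other G protein-coupled receptors. The gamma enzymes are phosphorylated by tyrosine kinases such as Syk and Btk on adaptors such as BLNK, downstream of Fc, C-type lectin and immunoreceptor-like chains. In haematopoietic cells PLC beta 2 and PLC gamma 2 are the forms usually described, whereas PLC beta 1 and PLC beta 4 are best known from the brain and retina.

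Depth ran from 3928164 counts (cDC2 WT 1) to 12142712 counts (cDC2 KO 2) per library. Of the genes named in the sorts, Siglech averaged 20814 and 20103 CPM (counts-per-million, scaled by TMM factors) in pDC WT and KO and 119 to 204 CPM in the other groups, and Itgam, the gene for CD11b, averaged 103 and 211 CPM in cDC2 WT and KO. Cd8a averaged 254 and 128 CPM in cDC1 WT and KO, but also 112 and 89.2 CPM in pDC WT and KO. The cDC1 marker list (8 genes) summed to 6949 to 9522 CPM in pDC libraries and 6186 to 10058 CPM in cDC1 libraries, so it did not set these subsets apart, and it was at 1461 to 3097 CPM in cDC2. Stk11 remained at 24.5 to 37.8 CPM on average in the KO groups against 34.6 to 51.4 CPM in the WT groups. A 3′ tag can be read from a transcript that lacks upstream exons, so Stk11 does not check the genotype here. In sorted bulk samples, fewer cells of a type and less RNA per cell cannot be told apart.

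Plcb1 and Plcb4 lie head to tail on chromosome 2 (GRCm38 throughout). Plcb1 (ENSMUSG00000051177) spans chr2:134786067-135475258 on the plus strand, and Plcb4 (ENSMUSG00000039943) starts 183.8 kb after its end and spans chr2:135659011-136014593 on the same strand. Plcb2 (ENSMUSG00000040061, chr2:118707517-118728438, minus strand) and Plcg1 (ENSMUSG00000016933, chr2:160731300-160775760, plus strand) are on the same chromosome, Plcb3 (ENSMUSG00000024960) is at chr19:6952325-6976470 on the minus strand, and Plcg2 (ENSMUSG00000034330) is at chr8:117498291-117635142 on the plus strand. Plcb1 is the longest of the 6, at 689.2 kb, and Plcb2 the shortest, at 20.9 kb. Exons of Plcg1 share 379 bases with Zhx3 and exons of Plcb3 share 22 bases with Ppp1r14b, both on the opposite strand. The libraries kept strand, but the strand setting of the counting is not given in the sources used here, so reads in those stretches are uncertain.

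The sequence before the annotated starts differed between the members. RefSeq (GRCm38.p6) promoters matched all 6 genes, and the 250 bases before the start were searched. The sequences of 3 starts are shown because Plcb1 and Plcb4 are the members whose reads differed most by genotype and Plcb2, the beta form usually described in leukocytes, is set beside them, and in each the capitals mark CpG pairs. The Plcb1 stretch is chr2:134785914-134786066 (plus strand), limited to the 153 bases outside annotated exons, with 13 CpG. The Plcb2 stretch is chr2:118728439-118728688 (minus strand), with 4 CpG in 250 bases. The stretch before the second RefSeq start of Plcb4 is chr2:135764588-135764837 (plus strand), inside the Plcb4 body and outside annotated exons, with 3 CpG.
Plcb1: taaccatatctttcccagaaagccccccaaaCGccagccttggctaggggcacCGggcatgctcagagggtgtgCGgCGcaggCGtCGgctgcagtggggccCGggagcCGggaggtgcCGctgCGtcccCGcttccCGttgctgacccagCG
Plcb2: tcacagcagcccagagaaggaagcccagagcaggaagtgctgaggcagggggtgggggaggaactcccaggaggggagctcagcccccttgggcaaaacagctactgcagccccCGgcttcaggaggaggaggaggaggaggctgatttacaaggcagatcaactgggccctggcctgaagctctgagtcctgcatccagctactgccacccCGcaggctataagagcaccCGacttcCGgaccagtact
Plcb4 second start: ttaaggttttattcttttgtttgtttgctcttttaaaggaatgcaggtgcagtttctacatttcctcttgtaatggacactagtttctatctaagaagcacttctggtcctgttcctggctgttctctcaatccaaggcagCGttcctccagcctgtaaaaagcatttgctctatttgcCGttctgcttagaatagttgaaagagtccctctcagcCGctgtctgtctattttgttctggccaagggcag
Over the whole 250 bases, GC content was 71.2% before Plcb1, 62.0% before Plcb2, 64.4% before Plcb3, 71.2% before Plcg1 and 59.6% before Plcg2, and it was 85.2% and 42.8% before the first and second starts of Plcb4, beside a median of 52.4% over the 32851 promoters of the table. The first start of Plcb4 therefore had more GC than 99.9% of those promoters and the second more than 17.9%. The letters GGGCGG, the core of a GC box, occurred on either strand before Plcb1 (1 match), Plcb3 (5), the first start of Plcb4 (7), Plcg1 (1) and Plcg2 (2), and not before Plcb2 or the second start of Plcb4, where 32.7% of all promoters hold at least 1 match. TGACGTCA, the full cAMP response element, is in 1.5% of all promoters, the shorter TGACG, which lies inside it, in 17.8%, and GAGGAAGT, a PU.1-type ETS motif, in 2.4%. None of these 3 strings was found on either strand in the windows of the 6 genes.

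Plcb1 was read almost solely in KO libraries. It encodes PLC beta 1, a Gq-activated form. In cDC2 KO it had 520, 834 and 374 reads, or 74.2, 66.5 and 54.3 CPM. The 2 cDC2 WT libraries had 0 and 9 reads, or 0 and 1.36 CPM. Every KO library of cDC2 was thus above both WT libraries. In pDC KO the reads were 306, 524 and 262, or 45.9, 72.8 and 45.9 CPM, and all 3 pDC WT libraries had 0 reads. In cDC1 KO the reads were 51 and 43, or 6.67 and 6.27 CPM, and both cDC1 WT libraries had 0. Plcb1 was therefore detected in 8 of 8 KO libraries and in 1 of 7 WT libraries.

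The size of the Plcb1 difference is bounded by depth where WT had no reads. With 0 reads, 3 counts over the group allow up to 0.307 CPM in cDC1 WT and 0.124 CPM in pDC WT, counting error only. Against that floor, Plcb1 was at least 21.0-fold higher in cDC1 KO and at least 443-fold higher in pDC KO. In cDC2 the fitted log2 difference was 6.33 ± 0.68 (SE), an 80.7-fold difference resting on 9 reads of 1 WT library. Summed over the cDC2 marker list (7 genes), pDC KO libraries had 429 to 541 CPM and pDC WT libraries 403 to 443 CPM, with Clec4a4 at 0 in pDC KO. Summed over the monocyte and neutrophil list (6 genes), cDC2 KO had 41.4 to 50.1 CPM against 15.7 to 35.4 CPM in cDC2 WT, and cDC1 KO had 45.5 to 72.3 CPM against 32.2 to 44.8 CPM in cDC1 WT. The same list was at 474 to 755 CPM in pDC KO and 359 to 605 CPM in pDC WT. Retnlg was at 0 in all cDC1 and pDC groups and in cDC2 WT, and Mpo in both pDC groups. S100a8 was at 0 in cDC1 WT and not in cDC1 KO, and S100a9 at 0 in pDC WT and not in pDC KO. Itgam was at 65.8 CPM in pDC KO and 5.14 CPM in pDC WT, and at 11.5 CPM in cDC1 KO and 1.12 CPM in cDC1 WT. The part of these cells in the Plcb1 reads was not tested.

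The KO subsets did not carry Plcb1 alike. By mean level the order was cDC2 KO (65.0 CPM, n = 3), pDC KO (54.8 ± 15.5 CPM, SD, n = 3), cDC1 KO (6.47 ± 0.283, n = 2), then cDC2 WT (0.678 CPM), with cDC1 WT and pDC WT at 0. The cDC2 and pDC KO ranges overlapped, and the cDC1 KO range lay below both and above all WT libraries. The log2 level in cDC1 KO was 3.32 ± 0.53 below that of cDC2 KO and 3.08 ± 0.53 below that of pDC KO. These KO levels are part of what chose the gene and carry no test.

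Plcb4 was also higher in KO, over a level present in every WT library. It encodes PLC beta 4, another Gq-activated form. In pDC it was at 67.5, 166 and 244 CPM in KO and 34.5, 30.1 and 25.2 CPM in WT, a log2 difference of 2.41 ± 0.41. In cDC2 it was at 78.2, 129 and 121 CPM in KO and 31.8 and 30.6 CPM in WT, a log2 difference of 1.81 ± 0.46. In cDC1 it was at 129 and 104 CPM in KO and 36.1 and 83.7 CPM in WT, a log2 difference of 0.96 ± 0.48. All KO libraries of a subset were above all its WT libraries. The fitted group levels differed by 5.32-fold, 3.51-fold and 1.94-fold in pDC, cDC2 and cDC1. The cDC1 value rested on 1 WT library, since it was 1.70 without cDC1 WT 2. The 3 KO means, 159 ± 88.3, 117 ± 17.3 and 109 ± 27.4 CPM in pDC, cDC1 and cDC2, overlapped in range, and pDC KO held both the highest library and the lowest KO library. Next came cDC1 WT (59.9 ± 33.7 CPM), whose range overlapped that of cDC2 KO, and then cDC2 WT (31.2 ± 0.871) and pDC WT (29.9 ± 4.68), whose ranges overlapped each other and not that of cDC1 WT.

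**Figure D1:**
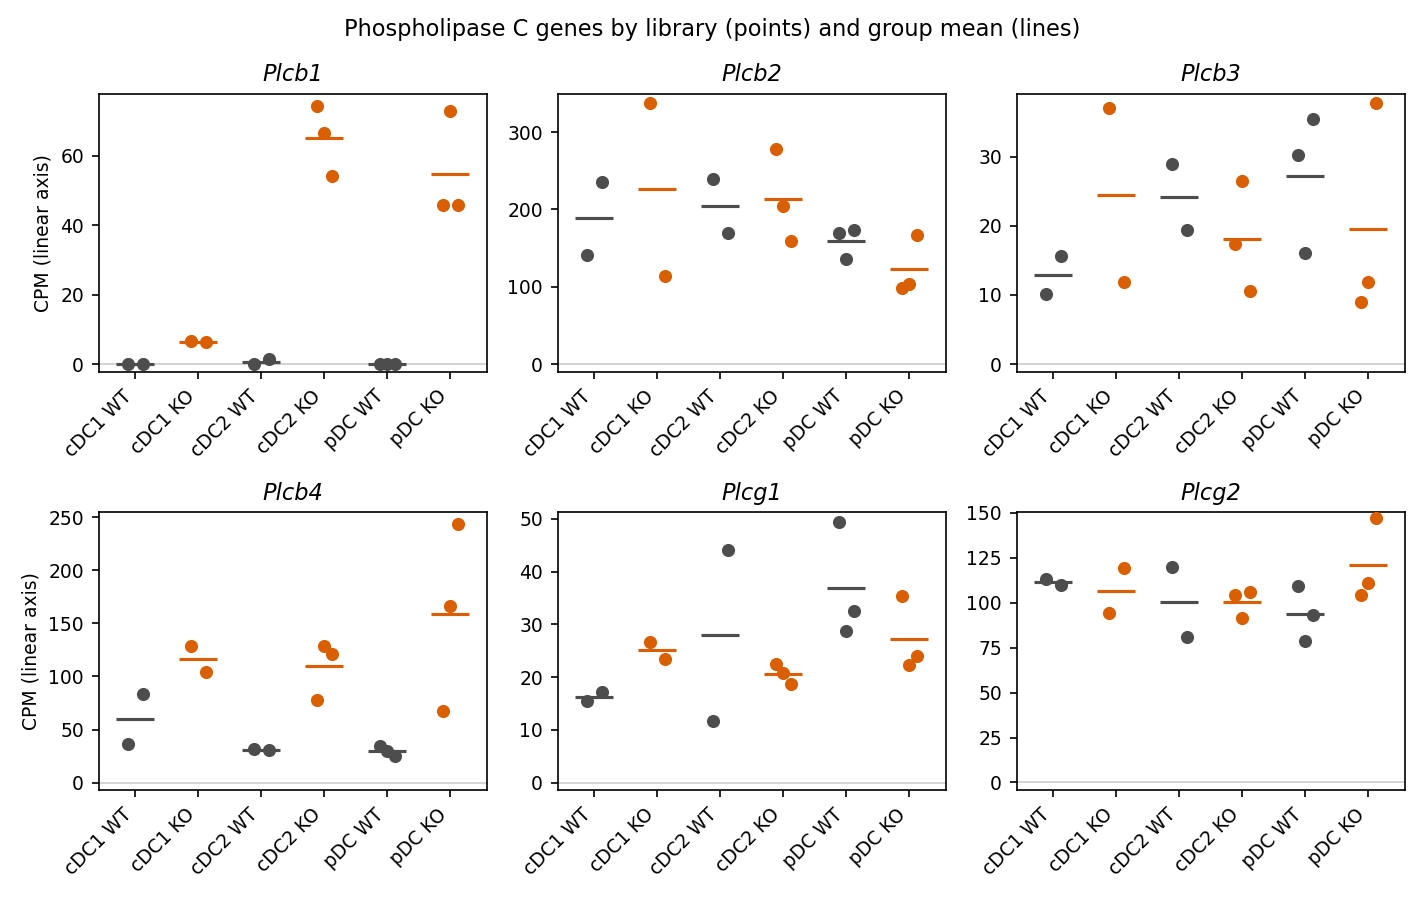
Level of the 6 phospholipase C genes in CPM (linear vertical axes from 0, a scale of its own for each gene) in each library (points) and as group means (lines), by subset and genotype, WT in grey and KO in orange. Plcb1 points leave 0 in the KO groups apart from 1 cDC2 WT library at 1.36 CPM, Plcb4 KO points lie above the WT points of their subset, and the Plcg2 points stay between 78.7 and 147 CPM.

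Plcb2 and Plcb3, the other beta genes, overlapped between KO and WT in each subset. PLC beta 2 is the beta form that answers to G protein beta-gamma subunits in leukocytes. Plcb2 was at 278, 205 and 159 CPM in cDC2 KO and 239 and 170 CPM in cDC2 WT, at 338 and 114 CPM in cDC1 KO and 141 and 236 CPM in cDC1 WT, and at 99.0, 104 and 167 CPM in pDC KO and 169, 136 and 174 CPM in pDC WT. The log2 differences of KO to WT were 0.06 ± 0.40, 0.26 ± 0.44 and -0.37 ± 0.36. The 2 cDC1 KO libraries stood at the top and near the bottom of the 15 values, and without cDC1 KO 1 the cDC1 difference was -0.72. Plcb3, a broadly expressed form, ran from 9.0 CPM (pDC KO 1) to 37.7 CPM (pDC KO 3), so its whole range lay within a single group. Its log2 differences were 0.92 ± 0.66 in cDC1, -0.40 ± 0.59 in cDC2 and -0.49 ± 0.53 in pDC. They were -0.13 in cDC1 without cDC1 KO 1 and -1.38 in pDC without pDC KO 3. In the order of group means every neighbouring pair of groups overlapped, from cDC1 KO (226 CPM) to pDC KO (123 CPM) for Plcb2 and from pDC WT (27.2 CPM) to cDC1 WT (12.9 CPM) for Plcb3. Groups further apart could separate. The Plcb3 range of cDC1 WT (10.1 to 15.7 CPM) lay below those of cDC2 WT (19.4 to 28.9 CPM) and pDC WT (16.1 to 35.4 CPM).

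Reads of the 4 beta genes were divided differently in KO and WT libraries, as their separate levels require. 3′ tags were not divided by transcript length, so these are shares of reads, compared between groups and not between genes. Plcb2 took 70.4% to 79.8% of the beta reads in the 7 WT libraries and 29.4% to 66.2% in the 8 KO libraries. Its median share was 33.7% in pDC KO, 47.9% in cDC2 KO and 57.2% in cDC1 KO. Plcb1 had a median share of 20.5% in pDC KO, 15.8% in cDC2 KO and 1.98% in cDC1 KO. Plcb4 had 46.8%, 30.3% and 34.6% in the same groups, against 14.8%, 12.2% and 22.1% in their WT groups. In cDC1 the median Plcb2 share was 72.8% in WT.

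**Figure D2:**
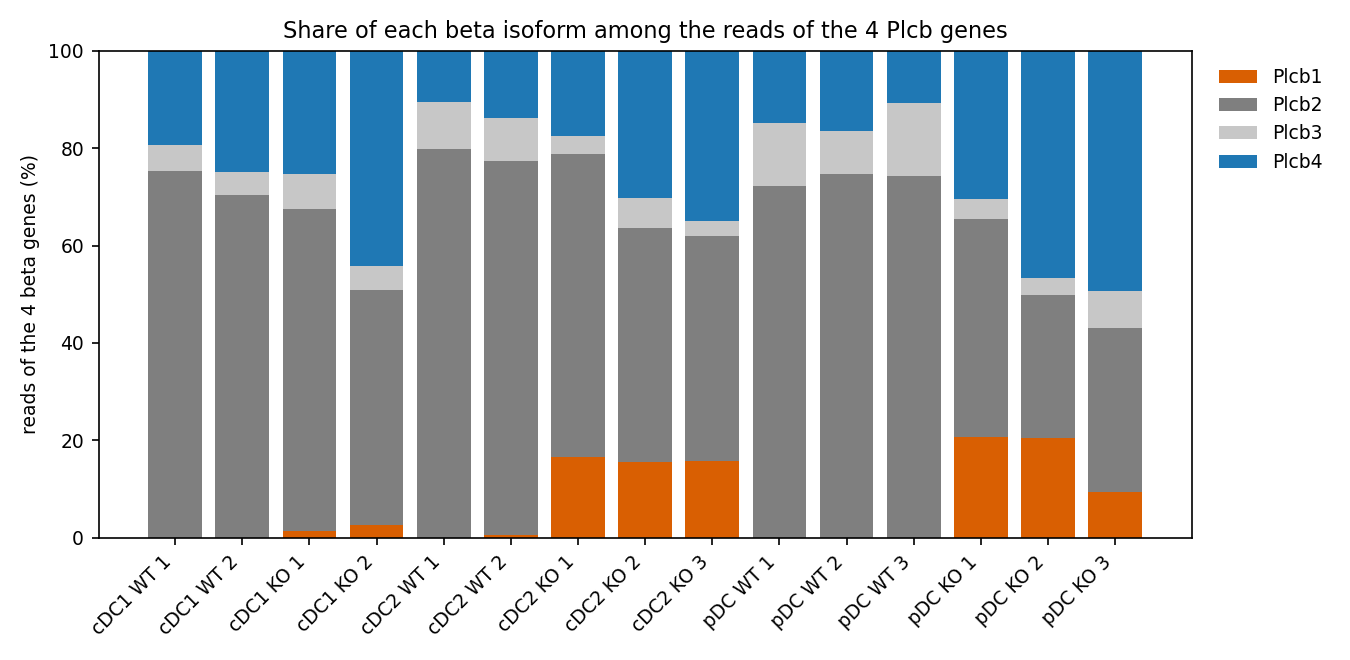
Share of each beta gene (percent of the reads of the 4 Plcb genes, vertical axis from 0 to 100) in each of the 15 libraries, stacked by gene. The Plcb2 segment is 70.4% or more in the WT libraries and 66.2% or less in the KO libraries, and the Plcb1 segment reaches 20.7% in pDC KO.

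The gamma genes showed no common shift with genotype. PLC gamma 1 is the form used by T cell receptors and growth factor receptors, and PLC gamma 2 the form used by B cell, Fc and C-type lectin receptors. Plcg1 was at 26.6 and 23.5 CPM in cDC1 KO against 15.5 and 17.1 CPM in cDC1 WT, a log2 difference of 0.62 ± 0.48 with both KO libraries above both WT libraries. It was at 22.4, 20.7 and 18.6 CPM in cDC2 KO against 11.7 and 44.1 CPM in cDC2 WT, and at 35.4, 22.2 and 24.0 CPM in pDC KO against 49.4, 28.8 and 32.6 CPM in pDC WT. The log2 differences there were -0.45 ± 0.43 and -0.44 ± 0.38, with overlapping groups. In cDC2 the value rested on 1 library, being 0.83 without cDC2 WT 2. Thymocyte and T cell markers (11 genes, none at 0 in any group) summed to 103 CPM in cDC2 WT 2 and 43.0 CPM in cDC2 WT 1, to 146 and 169 CPM in cDC1 WT, 82.3 to 119 CPM in cDC1 KO, 33.5 to 56.5 CPM in cDC2 KO and 288 to 391 CPM in pDC, and their part in the Plcg1 values was not tested. In the order of Plcg1 means, pDC WT (36.9 CPM), cDC2 WT, pDC KO and cDC1 KO each overlapped the next. The range of cDC2 KO (mean 20.5 CPM) did not overlap that of cDC1 KO, nor that of cDC1 WT (16.3 CPM), while cDC2 WT, at 11.7 and 44.1 CPM, spanned all of them.

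Plcg2 was the steadiest of the 6 genes. It was at 104, 91.6 and 106 CPM in cDC2 KO and 120 and 81.0 CPM in cDC2 WT, at 94.2 and 119 CPM in cDC1 KO and 113 and 110 CPM in cDC1 WT, and at 104, 111 and 147 CPM in pDC KO and 109, 78.7 and 92.9 CPM in pDC WT. The highest library was 1.87-fold above the lowest, and neighbouring groups in the order of means all overlapped. Further apart in that order, the Plcg2 range of pDC WT (78.7 to 109 CPM) lay just below that of cDC1 WT (110 to 113 CPM). The SD of its group means on the log2 scale was 0.13, and 0.775% of all tested genes had a smaller one. Within groups its SD was 0.24, with 5.32% of tested genes lower. The same between-group SD was 3.63 for Plcb1 (99.8% of tested genes lower), 0.98 for Plcb4 (76.3%), 0.38 for Plcb3 (26.3%), 0.38 for Plcg1 (25.6%) and 0.30 for Plcb2 (14.7%).

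Counted over the 6 genes, KO libraries were all above WT libraries for Plcb1, Plcb4 and Plcg1 in cDC1 (3 of 6, where 19.3% of all tested genes showed this), and for Plcb1 and Plcb4 in cDC2 (2 of 6, 23.1%) and in pDC (2 of 6, 5.76%). The members were picked with these contrasts in view, so nothing is read from the counts. Across the 15 libraries the log2 CPM of Plcb1 and Plcb4 had a Pearson correlation of 0.80, Plcb2 and Plcb3 had 0.62, and the other 13 pairs ran from -0.42 to 0.48. The libraries share genotype, subset and depth, so these correlations describe the pattern only.

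Comparisons between WT subsets are other contrasts than KO to WT, although the same WT libraries entered both. Plcb4 stood out by its KO to WT differences, and its WT levels are part of those. Its WT values are therefore a description, and it is left out of the counts below. Plcb1 had 9 reads in cDC2 WT 2 and 0 in the other 6 WT libraries, and passed the filter on low counts only through its KO reads, so its WT values are a description. The fit put it past the threshold in pDC to cDC2 (adjusted p = 0.00803 by edgeR), but that rests on those 9 reads, had an adjusted p of 1 without cDC2 WT 2, and is not counted here. The counts used edgeR's quasi-likelihood test, with p-values adjusted by Benjamini-Hochberg over every tested gene. Of Plcb2, Plcb3, Plcg1 and Plcg2, 0 differed between cDC2 and cDC1 (8.73% of all tested genes did), 0 between pDC and cDC1 (27.7%), and 0 between pDC and cDC2 (23.6%). At an unadjusted p under 0.05 the 3 comparisons had 0, 1 (Plcg1) and 0 of these genes, beside 25.4%, 38.3% and 35.4% of all tested genes. DESeq2 called 0, 1 (Plcg1) and 0 of these genes, beside 14.4%, 31.6% and 28% of all tested genes.

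The only counted difference with an unadjusted p under 0.05 was that of Plcg1 in pDC to cDC1. Plcg1 was higher in pDC than in cDC1 by 1.18 ± 0.45 on the log2 scale (2.26-fold, 95% interval 0.23 to 2.13, adjusted p = 0.0602 by edgeR), with 3 of 3 pDC libraries above both cDC1 libraries. DESeq2 called it (adjusted p = 0.0352), as did edgeR without a filter and with a strict one. By edgeR it missed the threshold under RLE scaling (adjusted p = 0.055) and with the replicate number as a block (0.073). It also missed when any pDC library was dropped (adjusted p from 0.0548 to 0.173 by edgeR). Dropping cDC1 WT 1 gave a Plcg1 log2 difference of 1.13, and dropping cDC1 WT 2 gave 1.25. Plcb4 was lower in pDC than in cDC1, by a log2 difference of -1.01 ± 0.43 (interval -1.91 to -0.10). Here 3 of 3 pDC libraries lay below both cDC1 libraries, and the Plcb4 values are a description only. Leaving out cDC1 WT 2 shrank the Plcb4 gap to -0.27, and leaving out cDC1 WT 1 widened it to -1.46. Between cDC2 and cDC1, the Plcb4 difference was -0.94 ± 0.48, again as a description. For Plcb3 the intervals reached from -0.49 to 2.29 (cDC2 to cDC1) and from -0.22 to 2.37 (pDC to cDC1), the widest of the 5 genes other than Plcb1. The Plcg1 difference of pDC to cDC2, 0.39 ± 0.43, rested on cDC2 WT 2, being 1.67 with an adjusted p of 0.0213 by edgeR without it and -0.25 without cDC2 WT 1. The intervals of Plcg2 were the narrowest, from -0.83 to 0.50 over the 3 comparisons, and those of Plcb2 ran from -1.19 to 1.04.

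Within KO mice, Plcb2, Plcb3, Plcg1 and Plcg2 were compared between subsets, and 0 of these 4 differed by edgeR in any comparison. The shares among all tested genes were 1.27% for cDC2 to cDC1, 21.5% for pDC to cDC1 and 25.9% for pDC to cDC2. Plcb2 came nearest, at -0.88 ± 0.39 in pDC to cDC1 (unadjusted p = 0.0393, adjusted p = 0.127 by edgeR) and -0.80 ± 0.36 in pDC to cDC2 (unadjusted p = 0.04, adjusted p = 0.114 by edgeR). It was the only one of the 4 with an unadjusted p under 0.05, in these 2 comparisons, where 32.9% and 37% of all tested genes had one (8.76% in cDC2 to cDC1). The first of these values rested on cDC1 KO 1, being 0.11 without it, while without cDC1 KO 2 it was -1.46 with an adjusted p of 0.0218 by edgeR. DESeq2 called 0 of the 4 in each comparison, beside 2.87%, 25.2% and 29.6% of all tested genes.

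**Figure D3:**
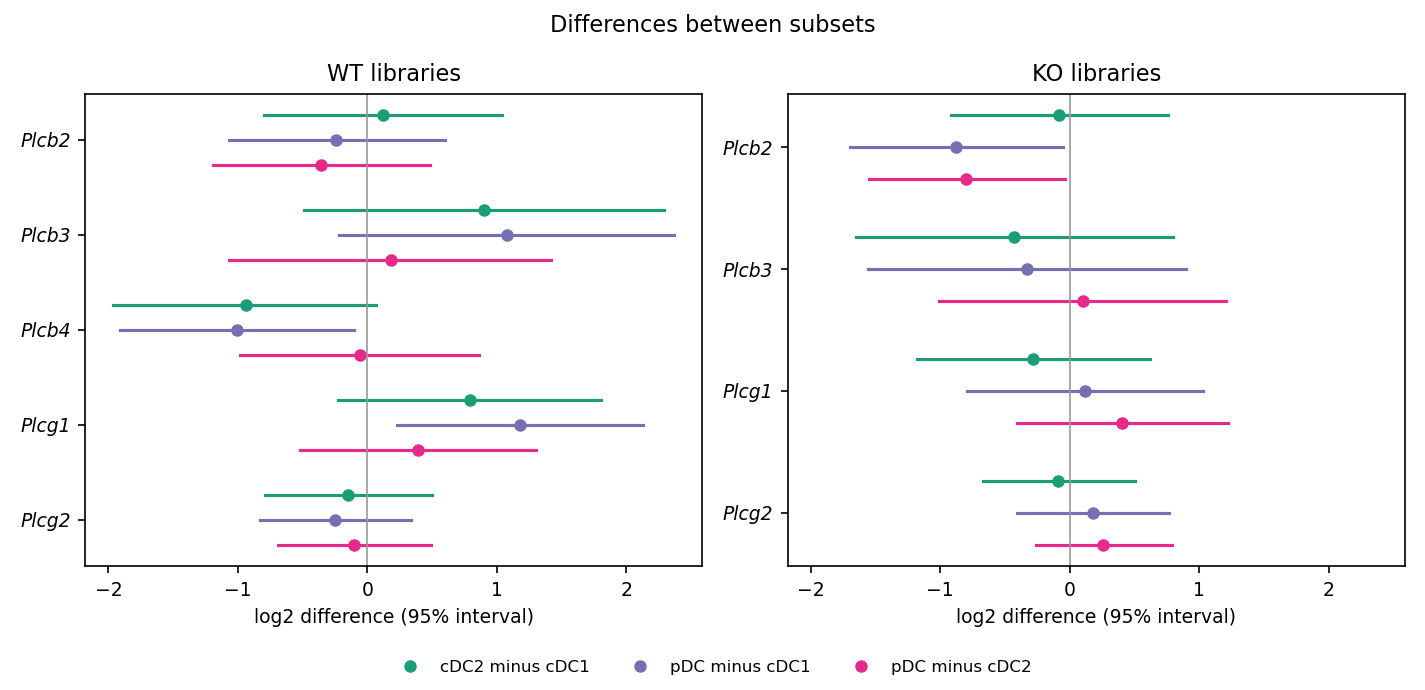
Log2 difference between subsets (points) with 95% intervals (lines) from the edgeR fit, for WT libraries (left, 5 genes) and KO libraries (right, 4 genes), with the 3 comparisons in different colours. Most intervals cross 0, those of Plcg1 and Plcb4 in WT pDC to cDC1 and of Plcb2 in KO pDC lie on 1 side of it, and Plcg2 has the shortest.

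With the adjacent member Plcb4 left out, no tested gene around Plcb1 passed the threshold between KO and WT. Of 29 genes in the table within 3 Mb of the Plcb1 body, members left out, 17 were tested, and the other 12 had at most 10 counts over all libraries. By edgeR, 0 of 17 passed the threshold in cDC1, cDC2 or pDC, where 0.0255%, 0.119% and 0.0681% of all tested genes did, and 0, 0 and 3 had an unadjusted p under 0.05, beside 3.83%, 13.3% and 10.6% of all tested genes. DESeq2 also called 0 in each, beside 0.153%, 1.87% and 1.17%. At shares this low, 0 of 17 does not set the neighbours apart from other genes. All KO libraries lay above all WT libraries for 2, 4 and 0 of the 17, beside 19.3%, 23.1% and 5.76% of all tested genes. They lay below for 2, 3 and 0, where the share over all tested genes was not taken, so nothing is read from these counts. Tmx4, the nearest tested gene at 141.9 kb before Plcb1, encodes a thioredoxin-like membrane protein and had log2 differences of 0.18 ± 0.31, -0.30 ± 0.28 and -0.21 ± 0.25 in cDC1, cDC2 and pDC. On the far side, Mkks and Slx4ip ran from -0.31 to 0.41 over the 3 subsets.

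The 3 neighbours with an unadjusted p under 0.05 were all in pDC and lay in both directions. Prnp, the prion protein gene, was at 33.6 CPM in KO and 9.94 CPM in WT (log2 difference 1.76 ± 0.52, adjusted p = 0.267 by edgeR), with overlapping groups. It passed the threshold in the edgeR fit without a filter (adjusted p = 0.00045) and without pDC KO 3 (0.0392). Btbd3 was at 14.9 and 31.3 CPM (-1.08 ± 0.48, adjusted p = 0.436 by edgeR), and Jag1, a Notch ligand, had no reads in pDC KO and 0.378 CPM in pDC WT (adjusted p = 0.435 by edgeR). The other tested neighbours, Rassf2, Slc23a2, Tmem230, Pcna, Cds2, Gpcpd1, Shld1, Trmt6, Mcm8, Crls1 and Bmp2, had pDC differences from -1.27 to 1.51.

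**Figure D4:**
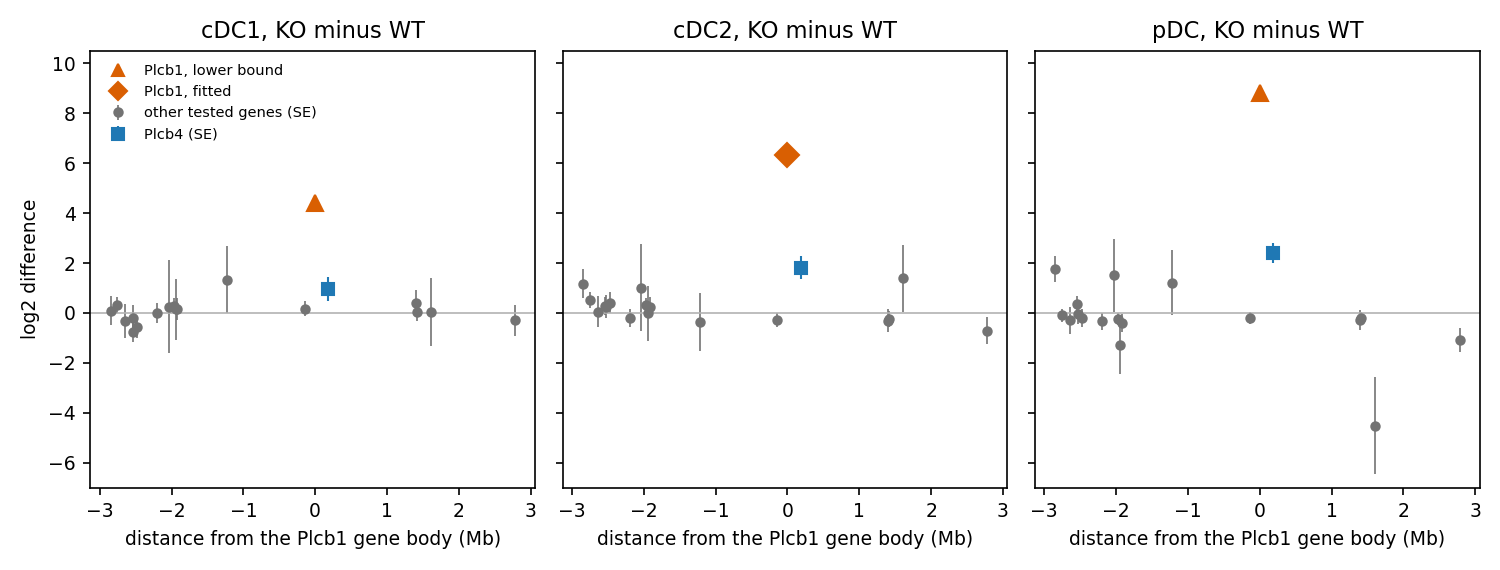
Log2 difference of KO to WT (vertical axis) against distance from the Plcb1 gene body in Mb (horizontal axis) for cDC1, cDC2 and pDC, with the 17 other tested genes in grey and Plcb4 in blue (bars, SE) and Plcb1 in orange (triangle, lower bound; diamond, fitted). Plcb1 and the adjacent Plcb4 stand above the neighbours in cDC2 and pDC, while in cDC1 Plcb4 at 0.96 lies within the neighbours' range, which reaches 1.33.

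The other genes of the pathway were described by role. The list counted 90 genes in 9 roles around the 6 enzymes, and 77 were tested. By edgeR, 0 of 77 passed by genotype in cDC1 and 0 in cDC2 (0.0255% and 0.119% of all tested genes did), with 2 and 9 at an unadjusted p under 0.05, beside 3.83% and 13.3% of all tested genes. DESeq2 also called 0 and 0, beside 0.153% and 1.87%. Median log2 differences over the 77 were -0.02 in cDC1 and -0.07 in cDC2, beside 0 and 0.09 over all tested genes. Upstream of PLC gamma, the exchange factor gene Vav1 was at 129 and 75.7 CPM in cDC2 KO and WT (log2 difference 0.77 ± 0.27, adjusted p = 0.243 by edgeR), and the inhibitory receptor gene Pirb at 92.4 and 50.2 CPM (0.88 ± 0.32, adjusted p = 0.256 by edgeR). All 3 KO libraries lay above both WT libraries for Vav1 and for Pirb, without passing the test.

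The genes named in the other roles had differences that missed the threshold by edgeR. Upstream of PLC beta, the Gq-class subunit Gna11 was at 103 CPM in pDC KO and 53.8 CPM in pDC WT (adjusted p = 0.34), and Gna15 at 37.4 and 25.6 CPM in cDC2 KO and WT (adjusted p = 0.474). Among other phospholipases, Plcd3 was at 2.87 and 0.452 CPM in cDC2 (adjusted p = 0.243) and Plcxd2 at 16.0 and 6.5 CPM in pDC (adjusted p = 0.422). In the subset given, both pairs were thus higher in KO on average without passing the test. Of these genes only Gna15 was lower in KO in another subset, cDC1 (log2 difference -0.23).

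In the supply of PIP2, the kinase gene Pi4kb was at 22.7 and 10.7 CPM in pDC KO and WT (adjusted p = 0.334 by edgeR), and Pip5k1c at 62.7 and 38.6 CPM in cDC2 (0.357). For the turnover of diacylglycerol, the kinase genes Dgkz and Dgke were at 58.2 and 25.7 CPM, and at 35.7 and 17.9 CPM, in pDC KO and WT (adjusted p = 0.16 and 0.397 by edgeR). DESeq2 called Dgkz in pDC (adjusted p = 0.00461). For IP3 turnover, the phosphatase gene Inpp5a was at 5.92 and 14.5 CPM in cDC2 (0.366), a value of opposite sign without cDC2 WT 2, and the kinase gene Itpkb at 30.3 and 50.7 CPM in cDC1 (1).

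In calcium entry, the channel gene Orai3 was at 16.1 and 32.8 CPM in cDC1 KO and WT (adjusted p = 0.929 by edgeR) and the pump gene Atp2a2 at 193 and 114 CPM (1). Among diacylglycerol effectors, Prkca was at 2.05 and 6.53 CPM in cDC2 (0.231) and Prkcd at 307 and 495 CPM in cDC1 (1). Among calcium effectors, Nfatc3 was at 96.3 and 147 CPM in pDC (0.443) and Camk2d at 40.7 and 57.5 CPM in cDC2 (0.521). In the subset given, all of these but Atp2a2 were lower in KO on average, again without passing the test. Only Nfatc3 was lower in KO in every subset. Orai3 was higher in KO in pDC (log2 difference 0.50, libraries not overlapping) and cDC2 (0.17). Camk2d (0.29) and Prkcd (0.10) were higher in pDC KO, and Prkca (0.11) in cDC1 KO. Atp2a2 was lower in cDC2 KO (-0.66, libraries not overlapping).

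The same pathway genes were compared between WT subsets. Between pDC and cDC1, 31 of 77 passed by edgeR (40.3%, beside 27.7% of all tested genes), 19 higher and 12 lower in pDC. Between pDC and cDC2, 26 of 77 passed (33.8%, beside 23.6%), 19 higher and 7 lower. Between cDC2 and cDC1, 5 of 77 passed (6.49%, beside 8.73%). With RLE scaling, DESeq2, no filter or a strict filter 8 to 10 passed, beside 8.35% to 14.4% of all tested genes. Syk, Fgr and Fcer1g, kinases and the Fc receptor chain upstream of PLC gamma, were higher in cDC2, and Plce1 and Orai3 were lower. Without cDC1 WT 2 the calls of Fgr and Fcer1g were lost, without cDC1 WT 1 that of Orai3, and without cDC2 WT 1 that of Fgr. Medians over the 77 genes were 0.32, 0.23 and 0.02, beside -0.05, 0.07 and -0.05 over all tested genes.

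Upstream of the enzymes, the genes named were higher in pDC, all values here with adjusted p by edgeR. The Gq-class genes Gnaq (1082 CPM in pDC, 323 CPM in cDC2, log2 difference 1.74 ± 0.38, adjusted p = 0.0029) and Gna11 (53.8 and 13.3 CPM, 2.03 ± 0.39, 0.000892) were higher in pDC. Of that role 3 of 3 tested genes passed as higher in pDC than in cDC2, where 23.6% of all tested genes differed in either direction. Blnk, the adaptor that docks PLC gamma 2, was at 317 ± 63.1 CPM in pDC and 3.44 ± 0.547 CPM in cDC1 (6.51 ± 0.49, adjusted p = 3.83e-08). Tyrobp, the signalling chain DAP12 of many myeloid and pDC receptors, was at 1304 CPM in pDC and 206 CPM in cDC2 (2.67 ± 0.26, adjusted p = 1.34e-06). Of the 12 tested kinases, adaptors and receptor chains upstream of PLC gamma, 5 were higher and 1 lower in pDC than in cDC1. This is 50.0% of them, beside 27.7% of all tested genes. Of the other phospholipases, Plce1, a Ras-regulated form, was at 23.0 CPM in cDC1 and 0.13 CPM in pDC (adjusted p = 0.000286), and Plcd3 at 10.3 CPM in pDC and 0.452 CPM in cDC2 (0.00158).

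Downstream, pDC had higher levels than cDC1 of both IP3 receptor genes named and of 1 protein kinase C gene. Itpr1 was at 519 CPM in pDC and 157 CPM in cDC1 (log2 difference 1.72 ± 0.30, adjusted p = 0.000396 by edgeR), and Itpr2 at 250 and 61.1 CPM (2.03 ± 0.35, 0.0003). Prkca was at 441 ± 186 CPM in pDC and 3.24 ± 3.04 CPM in cDC1 (7.13 ± 0.67, adjusted p = 5.56e-07), whereas Rasgrp3, an exchange factor for Ras and Rap that binds diacylglycerol, was at 7.28 and 215 CPM (-4.88 ± 0.44, 3.06e-07). Against cDC2 neither receptor gene passed (Itpr1 adjusted p = 0.0659 and Itpr2 0.051 by edgeR). Of the 8 tested genes of IP3 receptors and turnover 0 did, beside 23.6% of all tested genes. An unadjusted p under 0.05 was reached by 3 of the 8 (37.5%), beside 35.4% of all tested genes. Against cDC1, the diacylglycerol effectors Prkca and Rasgrp3 differed in opposite directions.

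Of the diacylglycerol kinases, Dgkd was higher in pDC than in cDC1 (189 and 31.9 CPM, adjusted p = 0.000444 by edgeR) and Dgkh lower (0.217 and 12.2 CPM, 0.000893). The lipid kinases Pi4k2a (42.8 and 229 CPM, adjusted p = 0.00177) and Pi4kb (10.7 and 34.8 CPM, 0.00336) were lower in pDC. The calcium pump gene Atp2a3 was higher in pDC than in cDC1 (58.2 and 13.0 CPM, 0.000494 by edgeR), and Orai3 higher in pDC than in cDC2 (37.2 CPM in pDC, log2 difference 1.90 ± 0.33, 0.000328). Nfatc1 was higher in pDC than in cDC1 (345 and 104 CPM, 0.00349) and Nfatc2 lower (21.4 and 53.0 CPM, 0.0186), both by edgeR. The calls of Pi4kb, Nfatc1 and Nfatc2 were lost when 1 cDC1 WT library was left out, with adjusted p of 0.0644, 0.057 and 0.14.

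**Figure D5:**
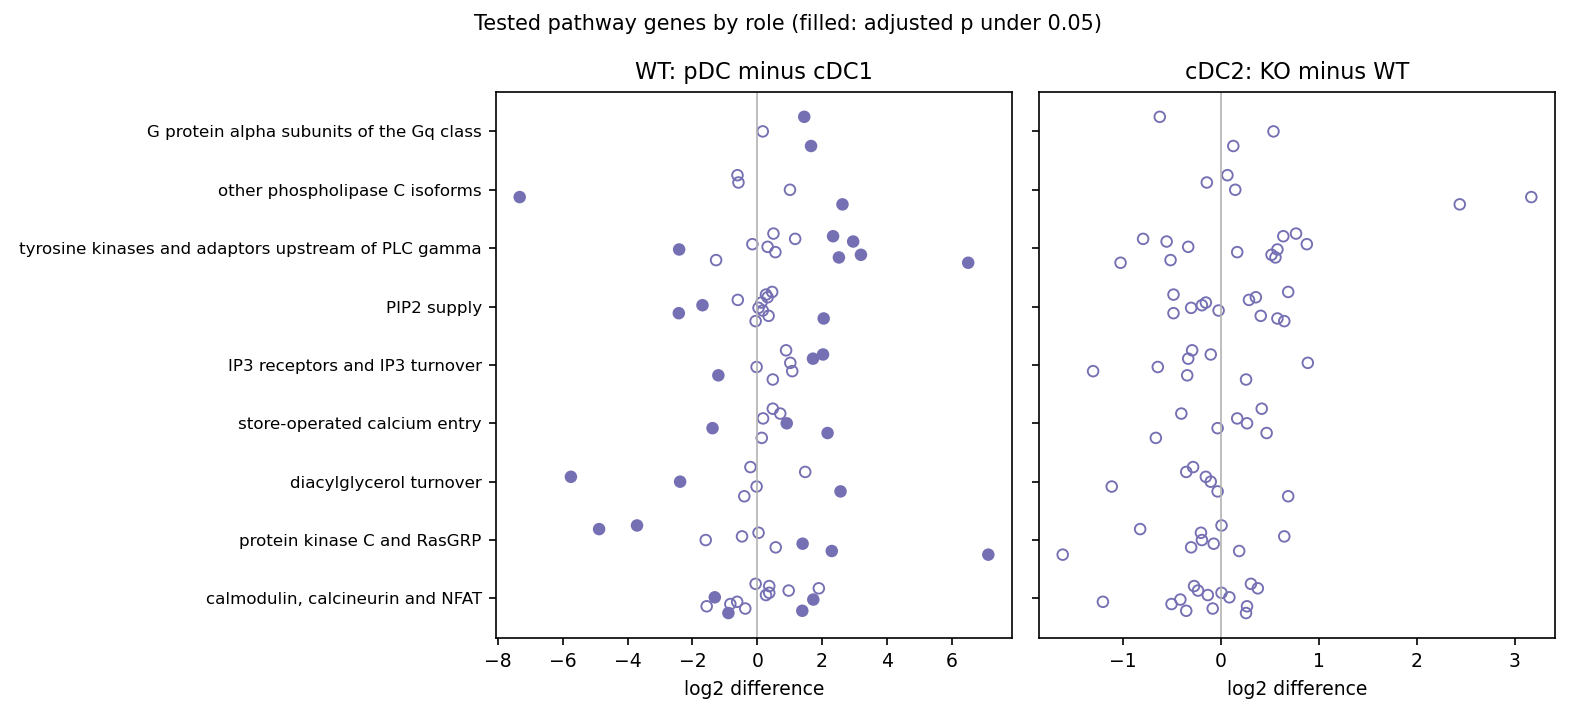
Log2 difference (horizontal axes) of each tested pathway gene, in rows by role, for WT pDC to cDC1 (left) and for KO to WT in cDC2 (right), filled where the adjusted p by edgeR was under 0.05. On the left 31 of 77 points are filled, and on the right 0.

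The genes most like each member over the 15 libraries were taken by Pearson correlation of log2 CPM, as a description of shared pattern. For Plcb1 these were Auts2 (0.86), a regulator of transcription and neuronal development, Flrt3 (0.83), an adhesion protein, Adgrg5 (0.82), an adhesion-class G protein-coupled receptor, 9330161L09Rik (0.82) and Pdcd1 (0.81), the gene of the inhibitory receptor PD-1. Auts2 was at 17.8, 11.8 and 9.95 CPM in pDC, cDC2 and cDC1 KO and 4.95, 4.25 and 1.64 CPM in their WT groups. Adgrg5 was at 56.2, 57.7 and 35.0 CPM in the KO groups and 13.7, 24.4 and 19.4 CPM in WT. Auts2, Adgrg5 and Pdcd1 (1.35 CPM) had, like Plcb1, their lowest KO mean in cDC1. Flrt3 had its lowest in pDC KO (9.72 CPM, against 14.3 CPM in cDC1 KO). 9330161L09Rik, with at most 19 reads in a group, had its lowest in cDC2 KO (0.716 CPM, against 0.933 CPM in cDC1 KO).

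For Plcb4 the nearest were Camk2b (0.86), a calmodulin-dependent kinase subunit, Aen (0.85), a nuclease, and Slc1a3 (0.82), a glutamate transporter. For Plcb2 they were Arhgef11 (0.84), Lzic (0.81) and Hps3 (0.78). For Plcb3 they were Pikfyve (0.90), the kinase that makes PI(3,5)P2, Chd6 (0.82) and Dusp11 (0.81). For Plcg1 they were Dync2h1 (0.86), Brwd1 (0.85) and Pafah1b1 (0.84), and for Plcg2 they were Eme2 (0.85), Cyb5d2 (0.81) and 2300009A05Rik (0.81). The 15 points share subset, genotype and depth, and the genes were picked as the most correlated of 11746.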

How the data were processed

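The values are raw read counts per gene, deposited by the authors as 1 table with no normalization. Per the submitters' processing notes, mm10, STAR, HTSeq and DESeq2 were used. Their roles, versions and duplicate handling are not given in any source used here. Per the labels, libraries were strand-specific 3′ tags from oligo-dT primers.

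Of 22165 genes, 11746 were kept by filterByExpr on the 6 groups, and those left out held 0.0538% of the counts. A quasi-likelihood model (edgeR 4.0.16, R 4.3.3, TMM factors, robust) with a coefficient for each group used all 15 libraries and gave a common biological coefficient of variation of 0.395. P-values were two-sided and adjusted by Benjamini-Hochberg over all tested genes, threshold 0.05. Groups of 2 libraries borrow the spread of all groups. Intervals are at 95%. CPM were computed from TMM-scaled totals, and correlations used log2 CPM with a prior count of 2. Folds against a group at 0 used 3 counts over the group. The fit was tested on simulated counts with known changes.

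The 6 members, the pathway list, the marker lists and the tests were chosen with earlier results of these data known. KO to WT values of the members, and KO levels of Plcb1 and Plcb4, were not tested. WT levels of Plcb4 entered the fit between subsets but are read as a description and are not counted. Named genes were the 6 members, every pathway gene past the threshold by genotype or otherwise the 2 of each role with the smallest p, the 2 of each role with the smallest p between WT subsets, all tested neighbours of Plcb1 within 3 Mb, and the 5 (Plcb1) or 3 genes most correlated with a member. A pathway gene is not reported here and was left out of the pathway counts, so the count by genotype in pDC is not given. Syk, Fgr and Fcer1g were named after their values were seen. Coordinates are from GENCODE M21 (GRCm38) and promoters from RefSeq (GRCm38.p6). Marker lists of B cells, NK cells, macrophages, platelets, stroma and melanoma were also summed. Melanoma markers reached at most 0.581 CPM in a library, platelet markers 1.05, B cell markers 22.2, macrophage markers 60.7, NK markers 227 and stroma markers 253. Alternatives were RLE scaling, DESeq2 1.42.0, no filter, a strict filter at 10 CPM in at least 2 libraries, a replicate block, and omission of each library of the groups compared in turn. Same-group libraries differed beyond counting noise (chi-square per degree of freedom 30 to 108).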

Additional observations from a re-analysis of the deposited data

Results flagged for a closer look

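Of 54 named genes looked at, 7 of the pathway list and around Plcb1 had KO to WT differences of opposite sign in different subsets, with KO and WT libraries not overlapping in either subset, and none of the 6 members did. The same pattern was seen in 10.2% of all 11746 tested genes. Part of the 54 were named for a small p between KO and WT, which favours libraries that do not overlap. Nothing is therefore read from the count. None of the 7 passed the threshold by genotype in any subset with edgeR. The difference between subsets was not tested for any of them. Values are log2 differences of KO to WT.

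The diacylglycerol kinase gene Dgke was at 1.00 in pDC, -0.67 in cDC1 and -1.11 in cDC2, and Dgkz, of the same family, was at 1.18 in pDC, -0.34 in cDC1 and -0.28 in cDC2. Pi4kb was at 1.08 in pDC and -0.44 in cDC1, and Orai3 at 0.50 in pDC and -1.03 in cDC1. Plce1 was at 3.17 in cDC2 and -0.87 in cDC1, the first value resting on 25 reads in KO and 1 in WT. Of the neighbours of Plcb1, Cds2, a CDP-diacylglycerol synthase gene, was at 0.41 in cDC2 and -0.57 in cDC1, and Bmp2 at 1.33 in cDC1 and -0.37 in cDC2. No group had the 4 libraries needed to test for a library far from the others.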

How the results depend on the processing

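The KO to WT differences of Plcb1 and Plcb4 kept their direction in every alternative run. Changes named below had causes that were not tested, apart from the smaller number of libraries when 1 was left out. Depth limits Plcb1 in WT (0 to 9 reads a library), and groups of 2 or 3 libraries limit the rest.

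With DESeq2, Plcg1 in WT pDC to cDC1 passed the threshold (1.21), as did 1 more pathway gene by genotype in pDC, Dgkz (1.17% of all tested genes did). Without a filter, Plcg1 (1.16) in WT pDC to cDC1 passed, as did Plcb4 (-1.02), whose WT values are a description only. So did 1 pathway gene by genotype in cDC2 (Prkca) and 1 neighbour in pDC (Prnp), beside 1.09% and 1.25% of all genes tested without a filter. With a strict filter Plcg1 in WT pDC to cDC1 did (1.21). Plcb1 in WT cDC2 to cDC1 also fell past the threshold with DESeq2 (1.53) and without a filter (1.46). These 2 values are log2 of pooled reads with the floor of 3 counts. They rest on the 9 reads of cDC2 WT 2, in a gene kept through its KO reads, and are not counted here. The pathway count of WT cDC2 to cDC1, 5 in the fit reported, was 8 with RLE scaling, 10 with DESeq2, 9 without a filter and 9 with a strict one. Over all tested genes the shares in these alternatives were 8.92%, 14.4%, 8.35% and 12.7%, beside 8.73% in the fit reported.

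With the replicate number as a block, Plcb3 changed sign in WT pDC to cDC2 (-0.06) and in KO pDC to cDC2 (-0.17), both far from the threshold. The block changed no call of a member it could be fitted for, and pathway counts went from 5, 31 and 26 to 6, 29 and 24 between WT subsets. Over all tested genes the shares went from 8.73%, 27.7% and 23.6% to 7.14%, 23.6% and 20.1%. Deviations within groups had correlations from -0.182 to 0.179 over 33 same-numbered pairs of libraries (6 over 0.1). Over 60 pairs of different number they ran from -0.274 to 0.274 (14 over 0.1). The pairs mix KO with WT, and in groups of 2 the deviations mirror each other. This check therefore cannot tell whether the numbers mark pairs, and they are not read as pairs.

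Leaving out 1 library at a time gave these ranges of log2 differences. For KO to WT, Plcb1 ran from 3.21 to 4.44 in cDC1 and 8.15 to 8.94 in pDC (lower bounds), Plcb2 from -0.72 to 0.85 in cDC1, Plcb3 from -0.13 to 1.52 in cDC1 and -1.38 to -0.14 in pDC, Plcb4 from 0.47 to 1.70 in cDC1, Plcg1 from -1.09 to 0.83 in cDC2 and Plcg2 from -0.24 to 0.10 in cDC1. Between KO subsets, cDC2 to cDC1 ran from -0.66 to 0.91 for Plcb2, -1.02 to 0.63 for Plcb3 and -0.24 to 0.10 for Plcg2. For pDC to cDC1 it ran from 2.82 to 3.23 for Plcb1, -1.46 to 0.11 for Plcb2, -1.22 to 0.71 for Plcb3 and -0.11 to 0.25 for Plcg1, and for pDC to cDC2 from -0.79 to 0.50 for Plcb3. Between WT subsets, cDC2 to cDC1 ran from 0.24 to 2.13 for Plcb1, -0.16 to 0.53 for Plcb2, -0.49 to 1.43 for Plcg1 and -0.47 to 0.11 for Plcg2. For pDC to cDC1 it ran from -0.54 to 0.18 for Plcb2 and -1.46 to -0.27 for Plcb4. For pDC to cDC2 it ran from -3.45 to -2.11 for Plcb1, -0.08 to 0.49 for Plcb3, -0.17 to 0.04 for Plcb4, -0.25 to 1.67 for Plcg1 and -0.36 to 0.22 for Plcg2. The Plcb1 values between WT subsets are not fitted differences but log2 of pooled reads with the floor of 3 counts. They rest on the 9 reads of cDC2 WT 2. Without that library both groups had 0 reads, and the values (1.24 for cDC2 to cDC1, -2.55 for pDC to cDC2) reflect depth alone. The pathway count of WT cDC2 to cDC1 ran from 3 to 6 (3 without cDC1 WT 2) and the neighbour count in pDC from 0 to 1. Of single genes, Inpp5a in cDC2 changed sign without cDC2 WT 2 (1.04).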
